A study of Mus musculus with 2 samples.

Results

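The peaks described here are the EP300 peaks of newborn mouse stomach whose summit base is soft-masked, which means that it is written in lower case in the genome sequence. In the authors' optimal set, 774 of the 7733 peaks on chromosomes 1 to 19 and X had such a summit, and 6959 had an unmasked one. The sequenced DNA came from whole stomach of strain B6NCrl at age 0 day, after immunoprecipitation of chromatin with EP300. There are 2 libraries in 1 group, called biological replicates 1 and 2. Since a single biosample and donor label covers both, their spread may be technical. There was no other tissue, stage or treatment. Sex is labelled as not collected. The optimal set is the larger of a pair of sets selected by the authors with the irreproducible discovery rate (IDR), a measure of how well peak ranks agree between replicates, and it held 7737 peaks, of which 4 lay off the named chromosomes.

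EP300 is a co-activator that acetylates histones and other proteins and is brought to enhancers and promoters by transcription factors, since it has no sequence-specific DNA binding of its own. Soft-masking is used to mark repeated sequence, such as interspersed repeats, which are remnants of transposable elements, and tandem or low-complexity stretches; what it marks depends on the program. Some transposable elements carry binding sites for transcription factors, and short reads from young copies can be hard to place on the genome.

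Most of the masked runs under these summits were short, and most of the 31-mers centred on the summits occurred once. A 31-mer is longer than a run of up to 30 bp, so there it takes in unmasked bases too. The 3 peaks of highest signal at promoters and the 3 strongest distal ones all had their summit in a short masked run. Each line gives the summit base with 50 bp on each side, on the plus strand of mm10 (GRCm38, from RefSeq), 5′ to 3′, with masked bases in capitals. Of the peak at Wdr77, whose summit lies in an untranslated exon of the neighbouring Atp5f1, only the masked run is given. Further masked runs lay close by at the first 2 peaks: 59.4% of the bases within 50 bp were masked at Wdr77 and 46.5% at Ostc, against 20.8% to 23.8% at the other 4.
Wdr77, promoter, chr3:105959324-105959344: TTTCCCCGCCCCCTCCCCACT
Ostc, promoter, chr3:130709519-130709619: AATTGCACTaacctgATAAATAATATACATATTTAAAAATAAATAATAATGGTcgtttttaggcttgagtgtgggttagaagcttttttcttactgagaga
Taf6, promoter, chr5:138187257-138187357: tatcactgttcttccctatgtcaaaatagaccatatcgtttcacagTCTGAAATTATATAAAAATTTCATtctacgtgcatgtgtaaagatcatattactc
Irf2bp2, distal, chr8:126736653-126736753: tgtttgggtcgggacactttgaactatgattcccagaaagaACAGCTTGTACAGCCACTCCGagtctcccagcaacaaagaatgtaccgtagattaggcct
Tjp1, distal, chr7:65469794-65469894: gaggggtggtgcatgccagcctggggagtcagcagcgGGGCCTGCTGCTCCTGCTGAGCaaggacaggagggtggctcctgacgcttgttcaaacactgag
Prdm1, distal, chr10:44428170-44428270: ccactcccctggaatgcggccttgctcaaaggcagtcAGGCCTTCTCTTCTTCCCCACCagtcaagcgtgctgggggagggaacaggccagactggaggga
The masked runs at these 6 summits measured 21, 38, 24, 21, 22 and 22 bp, and the 31-mer centred on each summit occurred 1 time in the assembly.

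Other forms were rarer. The summits nearest Filip1l and Capns1 lay in tandem tracts and are the strongest whose central 31-mer occurred 10 or more times. Slc3a2 and Rab17 stand for groups of members with similar sequence, and Plekhg2 is the strongest member in a run over 100 bp. Capitals again mark masked bases.
Filip1l, distal, chr16:57421022-57421122: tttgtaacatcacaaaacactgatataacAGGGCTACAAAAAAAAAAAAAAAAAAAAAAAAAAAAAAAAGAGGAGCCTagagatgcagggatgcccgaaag
Capns1, intermediate, chr7:30196200-30196300: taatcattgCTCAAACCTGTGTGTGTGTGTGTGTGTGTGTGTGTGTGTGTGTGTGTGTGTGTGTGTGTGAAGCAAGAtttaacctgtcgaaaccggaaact
Slc3a2, promoter, chr19:8723568-8723668: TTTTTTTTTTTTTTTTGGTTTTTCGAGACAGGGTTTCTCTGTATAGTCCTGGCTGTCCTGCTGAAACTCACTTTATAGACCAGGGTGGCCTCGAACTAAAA
Rab17, distal, chr1:90980576-90980676: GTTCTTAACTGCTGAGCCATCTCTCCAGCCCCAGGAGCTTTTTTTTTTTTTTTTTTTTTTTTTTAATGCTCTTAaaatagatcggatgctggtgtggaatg
Plekhg2, promoter, chr7:28373131-28373231: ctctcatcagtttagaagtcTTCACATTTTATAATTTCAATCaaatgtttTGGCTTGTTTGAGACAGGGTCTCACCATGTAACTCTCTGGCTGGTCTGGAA
The window near Slc3a2 carries a stretch known from B1, a family of short interspersed elements, and the window near Rab17 one known from B2. These names rest on background knowledge of the families, not on an annotation of repeats.

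The label of repeat sequence could be checked only through run length and copy number, since no annotation of repeats was used here, and neither can tell whether a stretch descends from a repeat. The masked run around the summit had a median length of 29 bp (quartiles 23 and 45, range 19 to 321). Positions on a grid of 1 per 2000 bp over the same chromosomes, kept where the base was masked, lay in runs with a median of 141 bp. Runs of up to 30 bp held 425 of the 774 members (54.9%, 95% interval 51.3 to 58.5) against 17.9% of masked grid positions. Runs over 100 bp held 50 members (6.46%, 4.83 to 8.43) against 56.5% of masked grid positions. Intervals of shares here and below are exact binomial (Clopper-Pearson) intervals and cover counting error only.

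**Figure D1:**
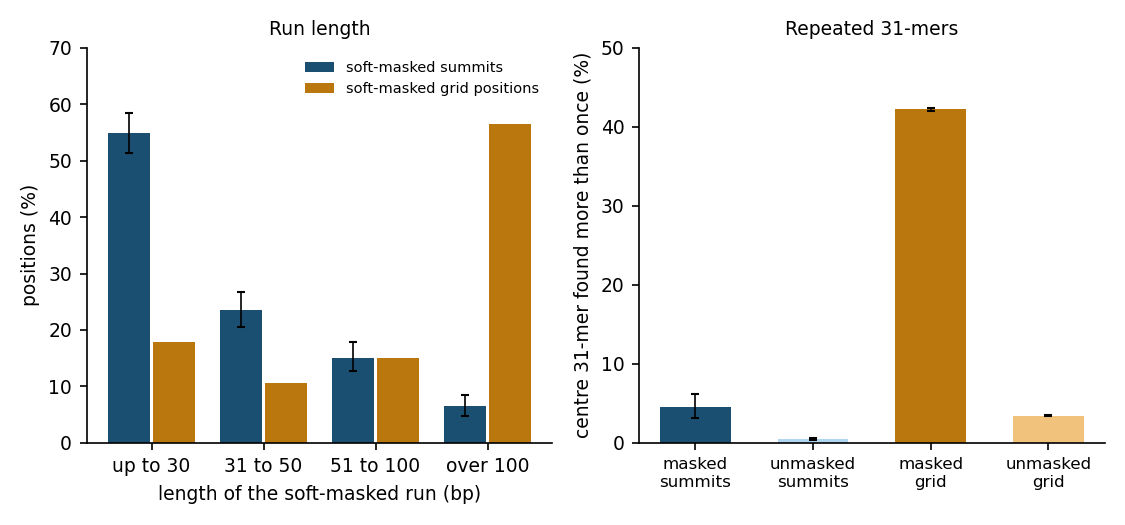
Left, share of soft-masked summits (n = 774) and of soft-masked grid positions (n = 439617) by the length of the masked run that holds them. Right, share of summits and grid positions whose central 31-mer occurs more than once in the assembly. Bars on the columns are exact 95% binomial intervals. Members lay mostly in runs of up to 30 bp. Over all run lengths, which differ between the groups, 4.52% of members had a repeated 31-mer against 42.2% of masked grid positions.

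The 31-mer centred on the summit occurred more than once for 35 members (4.52%, 3.17 to 6.23), for 33 of 6959 unmasked summits (0.474%) and for 42.2% of masked grid positions. The highest signal among those 35 members was 193.5, that of the promoter peak of Luc7l2. For 593 members (76.6%), every 31-mer within 100 bp of the summit occurred once. Shorter words were common: the central 15-mer had a median of 39 occurrences at members, 7 at unmasked summits and 148 at masked grid positions. Among the 50 members in runs over 100 bp, 7 (14.0%) had a repeated central 31-mer, against 66.1% of masked grid positions in runs of that length. In shorter runs the shares differed by fewer percentage points, with members lower in each class. They were 14.5% (8.70 to 22.2) against 20.9% for 51 to 100 bp and 3.85% (1.56 to 7.76) against 8.79% for 31 to 50 bp. For up to 30 bp, the class with 425 members, they were 0.941% (0.257 to 2.39) against 4.23%, so the interval lay below the grid share. Members lay in shorter runs than grid positions, so 4.52% and 42.2% are taken over unlike run lengths. The members are called soft-masked summits below, after the rule. The program behind the masking is not given in the sources used here, and a genome masked by another program could give other members and other shares of masked bases.

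A perfect tandem tract (unit of 1 to 6 bp, at least 12 bp and 3 copies) touched the sequence within 50 bp of the summit in 204 members (26.4%). The same held for 173 unmasked summits (2.49%) and for 15.7% of a sample of 43962 masked grid positions. Tracts of A, or of T on the other strand, led with 98 members (12.7%) against 1.99% of those grid positions, followed by AC with 23, AG with 11 and C with 9. The longest A tract measured 33 bp and the longest AC tract 52 bp. Masking itself marks such tracts, so these shares are a description.

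By alignment of the 100 bp on each side of the summit to one another (at least 80% identity over at least 80 bp), 33 members fell into 7 groups and 741 into none. The largest group, of the B1 kind, held 16 members. Its signals ran from 8.12 to 42.7, with Slc3a2, an amino acid transporter subunit, at 42.7 (replicate 1 at 26.6, replicate 2 at 20.9) and Tob2, an antiproliferative factor, at 42.6 (19.8 and 24.1). In 12 of the 16 each library had a peak with its summit inside the member peak, and in each of the other 4 a single library did. A library peak can be matched to more than one overlapping peak: near Mcl1, an anti-apoptotic gene of the Bcl2 family, the group's member at 17.5 has the same library peaks (26.6 and 25.4) as an overlapping member at 53.7 in an AC tract. Next came a pair of groups of 4, led by Pdzd2 at 30.8 and Rab17 at 24.0, and a group of 3 led by Mgat4c at 42.5.

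Summits fell on masked bases less often than bases at large. Over the same chromosomes 34.3% of all bases were masked, against 10.01% of summits (9.35 to 10.7). The share was 8.67% (256 of 2952) at promoters, meaning at most 1 kb from the start of a coding gene's transcript, where 17.3% of bases were masked. It was 9.68% (128 of 1322) at intermediate distances against 31.1% of bases, and 11.3% (390 of 3459) at distal summits, over 10 kb from any such start, against 35.5% of bases. Distance within a class was not matched: the 17.3% covers all bases up to 1 kb from a start. Promoter summits lay at a median of 242 bp from a start where masked and 135 bp where unmasked. Among the strongest peaks of each library, as many as the optimal set holds, 9.20% of summits were masked in replicate 1 and 9.66% in replicate 2. By chromosome the share ran from 7.90% to 14.1%.

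**Figure D2:**
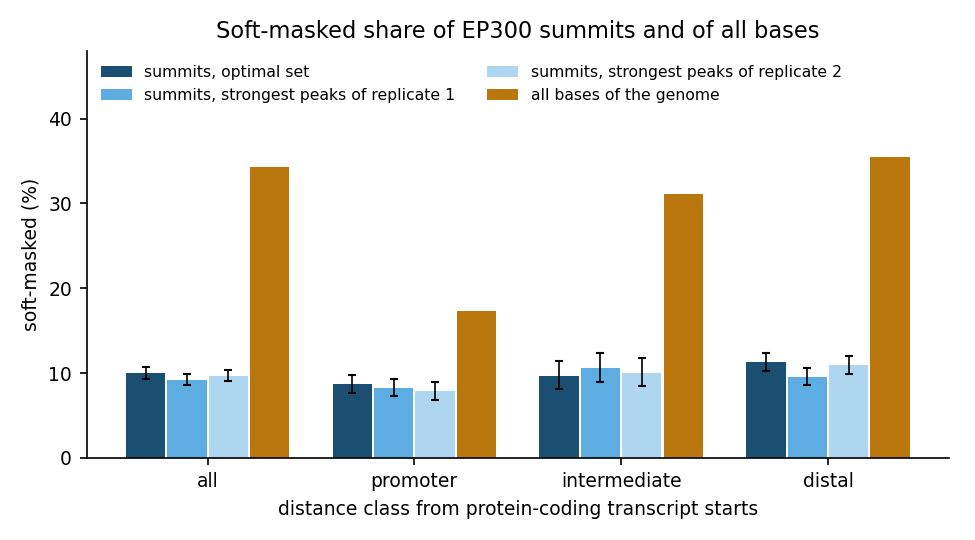
Share of summits that are soft-masked, in percent, by distance class, for the optimal set and for the strongest peaks of each replicate list, beside the share of all bases of the same class that are masked. Bars on the columns are exact 95% binomial intervals, and the genome columns are counted over every base. Summits stood between 8.67% and 11.3% in the optimal set, below the genome value in each class, without matching for distance within a class.

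The share was low around the summit. Around distal summits, 11.3% of positions were masked at the summit, and a mean of 26.0% at 2000 to 3000 bp from it. Around promoter summits the share rose from 8.67% to 27.8% over the same distances, and around intermediate summits from 9.68% to 24.4%. At promoter and distal summits the lowest value lay beside the summit, 6.98% at 100 bp and 9.97% at 50 bp to the left. The members themselves were islands: 50 bp to the right 19.8% of positions were masked, and at 100 bp 14.3%, below the 26.6% at 2000 to 3000 bp. No read-level mappability was at hand, so its part in these shares was not tested.

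**Figure D3:**
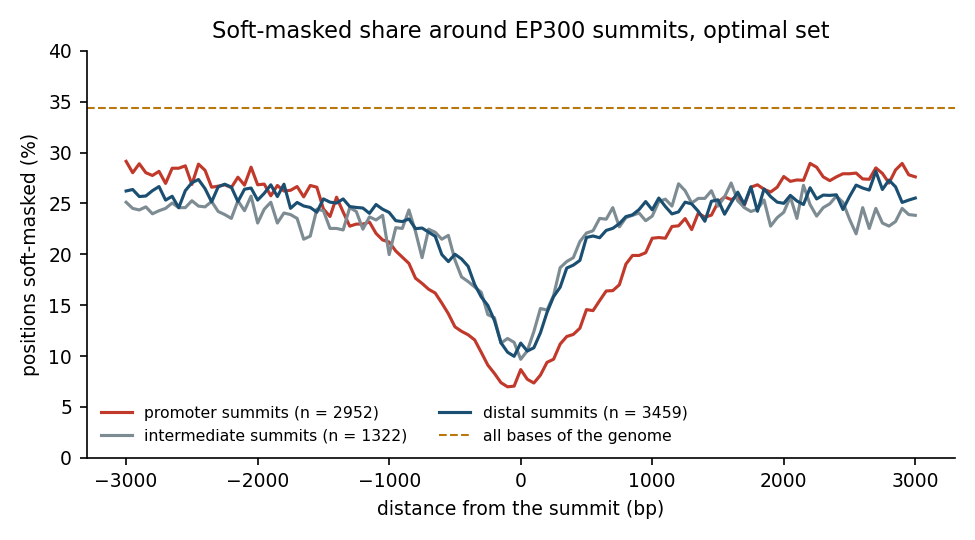
Share of positions that are soft-masked, in percent, against the distance from the summit in bp (plus strand), for promoter, intermediate and distal summits of the optimal set. The dashed line is the share over all bases. All lines are low around the summit, with a small local rise at the summit itself for promoter and distal peaks, and with 26.0% masked at 2000 to 3000 bp and 11.3% at the summit for distal peaks.

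The masked share rose from the strongest to the weakest peaks of the pooled list and of both replicate lists. In the pooled list 6.60% of summits of rank 1 to 1000 were masked, 9.70% of ranks 1001 to 5000, 17.8% of ranks 10001 to 50000 and 25.2% of ranks 200001 to 300000. In replicate 1 the first and last of these shares were 6.41% and 24.2%, and in replicate 2 they were 6.80% and 25.6%. The libraries thus gave the same order, and the weakest peaks stayed below the 34.3% of all bases.

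**Figure D4:**
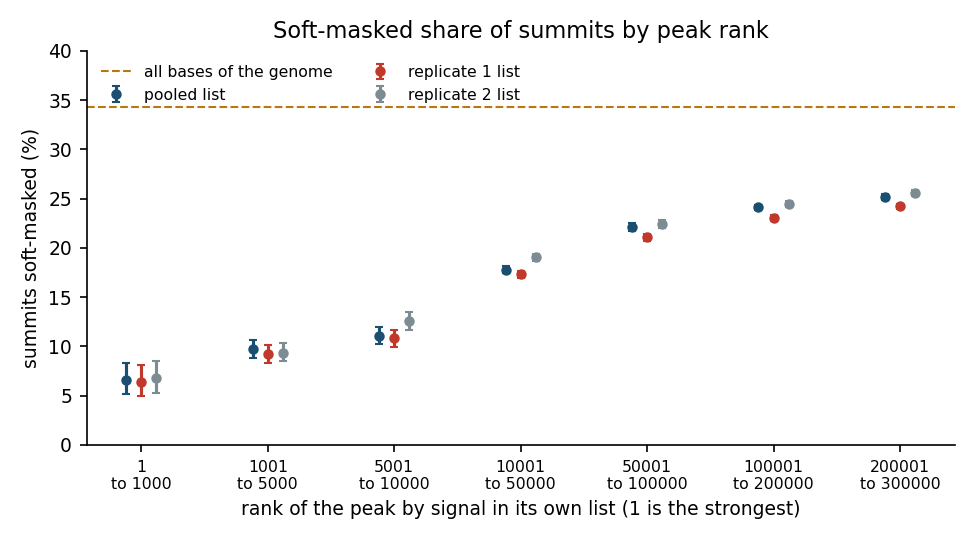
Share of summits that are soft-masked, in percent, by the rank of the peak by signal in the pooled list and in each replicate list, with exact 95% binomial intervals. The dashed line is the share over all bases. The share climbs from 6.60% in ranks 1 to 1000 of the pooled list to 25.2% in ranks 200001 to 300000.

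Masked summits lay at promoters less often than unmasked ones. Of the members, 256 (33.1%) were promoter summits, against 38.7% of unmasked summits (log2 odds ratio -0.35, 95% interval -0.58 to -0.13, two-sided Fisher's exact test p = 0.00205). Distal summits made up 50.4% against 44.1% (0.36, 0.15 to 0.58, exact p = 0.00091). The median distance to the nearest coding start was 10558 bp against 5729 bp. In annotated coding genes, 61 members lay in exons outside the coding sequence (7.88% against 12.1%, exact p = 0.000315), 8 in coding sequence (1.03% against 2.51%, exact p = 0.00826), 298 in introns (38.5% against 36.8%, exact p = 0.346) and 407 between genes (52.6% against 48.6%, exact p = 0.0371). In all 18 shares were tested in this way, those of signal and IDR set below among them, and the p-values are not adjusted over them. The promoter difference no longer passed among optimal peaks above the median signal (-0.25, exact p = 0.143) or in the strongest peaks of the pooled list (-0.20, exact p = 0.0864).

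Members had lower signal. The signal is the strength given to each peak by the authors' peak caller, and its scale differs from list to list. In whole stomach, a peak in fewer cells and a weaker peak per cell cannot be told apart. Its median was 28.5 at members (quartiles 21.4 and 36.5) and 30.4 at unmasked summits (23.9 and 39.98). In the library lists the medians were 15.98 against 17.6 in replicate 1 and 15.6 against 17.0 in replicate 2. Above the median of all summits, 30.2, stood 41.9% of members and 50.9% of unmasked summits (log2 odds ratio -0.53, -0.74 to -0.31, Fisher's exact test p = 2.08e-06). The order was the same within classes: 30.1 against 32.3 at promoters, 27.4 against 29.1 at intermediate and 27.9 against 29.8 at distal summits. The median GC content within 100 bp of the summit moved with these groups, at 46.3% for members and 51.2% for unmasked summits, and at 50.7% and 60.2% for those at promoters; its part in the difference was not tested.

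Members were less often found as the same peak, with the same bounds and summit, in the stricter conservative IDR set: 428 of them (55.3%) were, against 61.9% of unmasked summits (log2 odds ratio -0.40, -0.61 to -0.18, Fisher's exact test p = 0.000344). The conservative set is not a subset of the optimal one, and 678 of its own 6972 summits (9.72%) were masked, close to the 10.01% of the optimal set. Among distal summits alone the shares found as the same peak were 51.8% and 60.2% (exact p = 0.00179). A peak of the replicate 1 list had its summit inside 92.8% of member peaks and 93.5% of unmasked ones, and of the replicate 2 list inside 95.2% and 94.6%, and neither difference passed (exact p = 0.445 and 0.554). Across peaks matched in both libraries, log2 signals correlated at Pearson r = 0.40 (687 members) and 0.53 (6178 unmasked peaks), with Spearman rho of 0.26 and 0.38. Both libraries share their biosample label, and overlapping peaks share matches, so these correlations are descriptions across peaks.

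Members in runs over 100 bp had lower signal than the others. The median signal was 29.2 for runs of up to 30 bp, 29.3 for 31 to 50 bp, 27.02 for 51 to 100 bp and 18.4 for the 50 members in runs over 100 bp. In replicate 1 the medians of the shortest and longest class were 16.7 and 12.8, and in replicate 2 they were 16.3 and 11.6. Of the 50 longest runs 8 (95% interval 7.17% to 29.1%) stood above the median of all summits, against 43.6% (39.997 to 47.3) of the other 724 members (log2 odds ratio -1.95, -3.04 to -0.87, Fisher's exact test p = 8.49e-05). This division at 100 bp was chosen after the run lengths were seen. Without those 50 members the difference in signal from unmasked summits was -0.42 (exact p = 0.000206). With a summit counted as masked where at least 50% of the bases within 50 bp were, the difference in signal was -1.45 (exact p = 5.05e-14) and that in the conservative share -1.34 (exact p = 2.22e-13).

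The strongest members nevertheless reached the top of the list. Of the 20 strongest optimal peaks 2 had a masked summit, of the 100 strongest 5, of the 300 strongest 14 and of the 1000 strongest 67, beside 10.01% of all summits. The 20 strongest members included 17 at promoters and 3 distal ones, all 20 in the conservative set, with masked runs of 20 to 46 bp. Promoters among the strongest unmasked peaks were not counted, so this is not shown to be particular to members. Wdr77, a subunit of the methylosome that methylates arginines with Prmt5, had the highest signal, 485.9, with 256.6 in replicate 1 and 238.7 in replicate 2; its peak, chr3:105959124-105959568, was the second of the whole set. Ostc, a subunit of the oligosaccharyltransferase, followed at 313.0 (140.9 and 175.8), with its summit 125 bp from the start. Taf6, a subunit of the general transcription factor TFIID, stood at 238.7 (101.6 and 131.7). In both libraries these 3 peaks stood far above the members' median.

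Further promoters followed. Luc7l2, a splicing factor, had a signal of 193.5 (89.6 in replicate 1, 102.0 in replicate 2), and Stk38l, a kinase, 191.1 (83.7 and 104.5). Srcap, a chromatin remodeller, stood at 147.1 and Rbm15, of the complex that methylates adenosine in RNA, at 135.3. Ift74 of intraflagellar transport, Zwilch of the kinetochore, the splicing factor Srsf10, the serine-synthesis enzyme Psph, the actin regulator Abi1 and the nucleoside kinase Nme1 ranged from 132.8 down to 87.0. The transcription factors Sp1 and Atf7 stood at 79.2 and 76.5, and Troap and Vmp1, the latter of autophagy, at 78.4 and 77.6. Of the 20 peaks, 8 were narrower than the usual 560 bp of the list, against 8 of all 774 members; narrow peaks are 1.03% of members and 2.14% of unmasked peaks.

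The strongest distal member lay 142717 bp from the start of Irf2bp2, a transcriptional co-repressor, at chr8:126736423-126736982, between genes. Its signal was 113.4, with 50.7 in replicate 1 and 62.2 in replicate 2. An intron of Tjp1, which encodes the tight-junction protein ZO-1, held the next at chr7:65469564-65470123, with 78.6 (41.5 and 36.2). The third lay 28990 bp from Prdm1, a repressor of lineage genes, with 74.6 (48.4 and 25.9). Further distal members included one in the non-coding gene Frmd8os at 72.3, one in an intron of Rbms1 at 70.8 and one in an intron of Vmp1 at 67.2.

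Sequences recognised by transcription factors were searched on both strands within 100 bp of each summit, for 36 motifs, and compared with a window centred 1000 bp to the right by an exact McNemar test. The Benjamini-Hochberg adjustment covered the 36 motifs. Members' summit windows were chosen for a masked centre base and their flanks were not, so these p-values are not independent of the rule. At members 2 motifs (5.56%) were higher at the summit and 0 (0.0%) lower, against 20 (55.6%) and 4 (11.1%) for the 6959 unmasked summits. These counts come from sets of unequal size and were not compared: AP-1 was 2.29-fold above its flanks at members and 2.22-fold at unmasked summits, and NF-Y, searched as CCAATCA, 2.68-fold and 2.20-fold. At an unadjusted p under 0.05, 7 motifs were higher and 1 lower at members.

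The sites themselves are shown for AP-1, bound by Fos and Jun proteins and searched as TGANTCA, and for ETS factors, searched as CCGGAAG. The last line adds a match to the glucocorticoid receptor motif, which did not pass against flanks (adjusted exact McNemar p = 0.106). Capitals here mark the motif and not the masking, and the lines again give 50 bp on each side of the summit, on the plus strand of mm10.
Rbms1, AP-1, distal, chr2:60829058-60829158: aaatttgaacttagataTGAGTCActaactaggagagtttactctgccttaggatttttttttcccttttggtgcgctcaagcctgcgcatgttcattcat
Tex35, AP-1, distal, chr1:157073696-157073796: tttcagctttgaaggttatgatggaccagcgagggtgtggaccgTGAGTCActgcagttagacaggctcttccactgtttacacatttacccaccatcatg
Vmp1, ETS, promoter, chr11:86683844-86683944: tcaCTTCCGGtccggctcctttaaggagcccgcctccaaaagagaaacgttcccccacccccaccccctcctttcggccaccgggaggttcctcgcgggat
Rpa2, ETS, promoter, chr4:132768078-132768178: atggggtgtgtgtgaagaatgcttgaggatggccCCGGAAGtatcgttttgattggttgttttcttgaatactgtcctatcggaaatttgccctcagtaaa
Irf2bp2, glucocorticoid receptor, distal, chr8:126736653-126736753: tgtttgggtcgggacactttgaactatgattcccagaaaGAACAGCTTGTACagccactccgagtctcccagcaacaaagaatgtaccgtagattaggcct

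The AP-1 motif was found at 97 members (12.5%, 10.3 to 15.1) and in 42 of their flanks (5.43%), 2.29-fold higher, adjusted exact p = 5.03e-05; 4.45% of masked grid windows held it. It stood at 4.30% of promoter, 15.6% of intermediate and 16.9% of distal members. The ETS motif was found at 37 members (4.78%, 3.39 to 6.53) and in 8 flanks (1.03%), 4.41-fold higher, adjusted exact p = 0.000277, with 0.485% of masked grid windows. It had the opposite spread, with 31 of the 37 at promoters (12.1% of them) and 4 at distal summits (1.03%). A match touched masked bases in 29 of the 97 windows with AP-1 and in 7 of the 37 with ETS. Over all member windows 28.7% of bases were masked. Most of the searched sequence was thus unmasked. A match was counted as touching if any of its bases was masked, so the counts and the share of bases are unlike measures. The counts are a description.

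Within 50 bp of the summit the AP-1 difference no longer passed (6.59% against 3.49%, adjusted exact p = 0.114). Without the members that hold a tandem tract, ETS did not (4.04% against 1.23%, adjusted exact p = 0.094). At the 177 members whose flank centre was masked too, AP-1 stood at 13.0% against 6.78% and ETS at 5.65% against 0.565%. Neither passed there (adjusted exact McNemar p = 0.554 and 0.422). With at least 50% of the bases within 50 bp masked, neither motif passed against flanks (adjusted exact McNemar p = 0.657 and 0.711). Against unmasked summits neither difference passed, with AP-1 at 12.5% and 12.7% (adjusted exact p = 1.0) and ETS at 4.78% and 6.14% (adjusted exact p = 0.493). Taking the strongest peaks of replicate 2 by itself, ETS was lower at masked summits and passed, with 3.61% against 6.13% (adjusted exact p = 0.0297). The motif of the glucocorticoid receptor, whose search pattern is not spelled out here, was at 15 members (1.94%), 14 of them distal, and in 4 flanks (adjusted exact p = 0.106).

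Between masked and unmasked summits, by Fisher's exact test with the same adjustment, 2 of the 36 motifs were higher at members (5.56%) and 1 lower (2.78%). Members were chosen by the masking of the same sequence that was searched. The p-values are therefore no independent support, and the differences describe the members. The homeobox core TAATTA was at 6.72% of members and 3.49% of unmasked summits (log2 odds ratio 1.00, adjusted exact p = 0.00148). The motif of interferon regulatory factors (IRF), by name only, was at 4.65% and 2.41% (0.99, adjusted exact p = 0.00956). GGGCGGG, the GC box of Sp factors, was at 8.01% and 12.8% (-0.74, adjusted exact p = 0.00149). Grid windows with a masked centre held them at 6.35%, 3.99% and 0.840%, and those with an unmasked centre at 7.69%, 2.95% and 1.07%. For the homeobox core the share at unmasked summits thus stood below both grid shares, and that of members between them. Of the windows with an IRF match, 28 of 36 had one that touched masked bases, as did 25 of 52 for the homeobox core and 22 of 62 for the GC box. These are windows where any base of a match was masked. The 28.7% masked over all member windows is a share of bases, so it is no reference for them.

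These calls depended on the set of peaks. The homeobox difference did not pass in the strongest peaks of either library, with 4.36% against 3.53% in replicate 1 (adjusted exact p = 0.555) and 4.95% against 3.94% in replicate 2 (adjusted exact p = 0.456). IRF passed in replicate 2 (5.76% against 2.52%, adjusted exact p = 0.000237) and not in replicate 1 (3.23% against 2.18%, adjusted exact p = 0.277). The GC box passed in both (adjusted exact p = 0.0014 and 0.00958). Among distal summits alone it stood at 3.59% and 4.04% (adjusted exact p = 1.0), and none of the 36 motifs was called there, with 3 higher and 0 lower at an unadjusted p under 0.05. At promoters, where the classes were not tested, the GC box stood at 16.02% of members (11.7 to 21.1) and 24.3% of unmasked summits (22.7 to 25.96), and the homeobox core at 5.47% (3.02 to 9.01) and 1.74% (1.28 to 2.31).

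**Figure D5:**
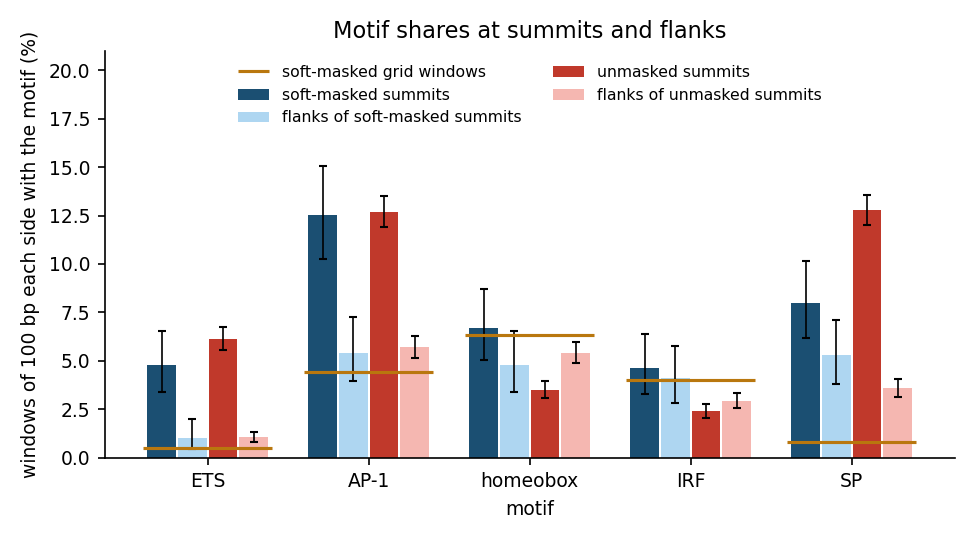
Share of windows of 100 bp on each side with each motif, in percent, at soft-masked summits (n = 774), at unmasked summits (n = 6959) and in the windows 1000 bp to their right, with exact 95% binomial intervals. Horizontal lines give the share in grid windows with a masked centre. AP-1 and ETS stand above their flanks at members, and the GC box (SP) stands lower at members than at unmasked summits.

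Genes near members were counted over the 21755 protein-coding genes, of which 1343 (6.17%) had a masked summit within 50 kb of their start and 7331 (33.7%) an unmasked one. Distances to a named gene here run to its outermost start. For 333 genes only masked summits were in reach. Most genes with a masked summit, 1201, had 1, and 17 had 3 or more. Il17b, a cytokine gene, had 5, beside 18 unmasked ones. The strongest of the 5, at 35.4 (11.2 in replicate 1, 25.4 in replicate 2), lay between coding genes, 39454 bp from the start of Il17b. Cenpp of the centromere, Iars, an aminoacyl-tRNA synthetase, and Nol8, a nucleolar protein, shared the same 4, of which 3 overlap in an intron of Cenpp.

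Mark2, a kinase of cell polarity, and Rcor2, a co-repressor, shared 3, the strongest at 50.4 (31.4 in replicate 1, 19 in replicate 2). Pim1, a serine/threonine kinase, also had 3, the strongest at 50.03 (36.5 and 21.2), 51 bp from its nearest transcript start. Esyt1, a lipid-transfer protein at membrane contacts, had 3, led by a peak at 45.1 that stood at 6.86 in replicate 1 and 36.2 in replicate 2. Hfe2, a regulator of iron balance, and Tnrc18 had 3 each, led by 43.5, which lay nearest to Txnip, and 42.2. The peak counted for Esyt1 has Rpl41 as its nearest gene.

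Of 24 genes of the contractile apparatus of smooth muscle, 4 (16.7%, 4.74 to 37.4) had a masked summit, and 18 (75%) had an unmasked one. Lmod1, which nucleates actin filaments in smooth muscle, had a single summit within 50 kb and it was masked: signal 41.3 (18.6 and 18.99), in an intron, 34493 bp from the start and nearest to the start of Shisa4. Cnn1, the smooth muscle calponin, likewise had only a masked one, at 26.3 (18 and 11.5), but its nearest gene start is that of Ecsit. Myl9, a myosin light chain, had 1 at 41.0 (29.2 and 17.9) beside 2 unmasked ones, and Myl6, another, had 2 beside 2. The shares stand beside 6.17% and 33.7% of all coding genes, without a test. The count was 8 among the strongest peaks of replicate 1, 3 among those of replicate 2 and 7 in the conservative set.

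Of 22 immediate early genes, induced within minutes by growth factors or stress, 9 (40.9%, 20.7 to 63.6) had a masked summit and 18 (81.8%) an unmasked one, beside 6.17% and 33.7% of all coding genes. The strongest lay near Zfp36, an mRNA-decay factor, at 62.4 (34.5 in replicate 1, 22.1 in replicate 2); it is the Plekhg2 window printed above, with a run of 138 bp. Fosl1, of the AP-1 family, had 1 at 36.3 with 28.3 and 5.95 in the libraries, nearer to Mus81. Jun had 1 at its own promoter at 34.0, which matched a peak of replicate 2 (20.4) and none of replicate 1, beside 8 unmasked ones. Ier2 had 1 at 30.8 (14.7 and 20.7). The count of 9 was 5 among the strongest peaks of replicate 1, 8 among those of replicate 2 and 3 in the conservative set.

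Epithelial, blood and interferon genes were counted in the same way. Of 24 squamous forestomach genes 3 (12.5%) had a masked summit, the keratins Krt13, Krt14 and Krt15, and all 3 shared 1 distal peak at 41.9 (22.2 and 17.9) nearest to Krt19. Of 24 genes of the glandular stomach 1 (4.17%) did: Kcne2, a potassium channel subunit of acid-secreting parietal cells, whose only summit was masked, at 28.7 (11.96 and 17.3), 15159 bp away. Cd68, a macrophage marker, was the 1 of 24 blood and immune genes, through a peak nearest to Eif4a1 at 57.9. None of 23 interferon-response genes had one (0 to 14.8%), and 5 had an unmasked summit. Among the strongest peaks of each library the glandular count was 2 in replicate 1 and 3 in replicate 2, and the interferon count 0 and 1.

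Of 23 factors that silence transposable elements 2 (8.70%) had a masked summit. These were Uhrf1, a cofactor of maintenance DNA methylation, at 20.2 through a peak nearest to Fem1a, and Trim28, the co-repressor of KRAB zinc finger proteins, at 9.73 with no matched peak in either library. The strongest peaks of replicate 1 gave 3 such genes, those of replicate 2 gave 4 and the conservative set 0. Among 394 genes with a Zfp symbol, many of which encode zinc finger proteins, 31 (7.87%, 5.41 to 10.98) had one, beside 6.17% of all genes, and Zfp646 and Zfp668, which share 2, had the most. Of 24 ribosomal protein genes 5 (20.8%, 7.13 to 42.2) had a masked summit and 17 (70.8%) an unmasked one, beside 6.17% and 33.7% of all coding genes. Rpl4 took the strongest of these, the Zwilch promoter peak at 132.7 (55.9 and 72.9), 152 bp from its own start, and Rps2 had 1 at 40.7 (22.6 and 15.7); neither had an unmasked summit.

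The 774 members lay in 749 of the 6079 runs of overlapping peaks. In 24 of these runs there were at least 2 masked summits, 451 members had no overlapping peak, and 282 shared their run with an unmasked summit. Taking 1 peak per run, the strongest, left 587 masked summits (9.66%), and the differences in promoter share (-0.28, exact p = 0.0336), signal (-0.50, exact p = 9.05e-05) and conservative share (-0.38, exact p = 0.00357) stood by Fisher's exact test. These p-values are over peaks, which share 2 libraries of 1 biosample, and measure no spread between animals.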

How the data were processed

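EP300 was measured in 2 libraries of 1 group, and the authors deposited 5 peak lists on mm10: the optimal and conservative IDR sets, the pooled list and both replicate lists, the last 3 with 300000 peaks each. Each peak carries a signal value of the authors' peak caller, on its own scale in each list, and the deposited summit offset in bp from the peak start, counted from 0. Which caller and aligner were used is not given in the sources used here. Depth is unknown, because the lists hold no read counts.

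The summit base was read in the soft-masked GRCm38 sequence of RefSeq. Genes came from GENCODE M21, and distances run to transcript starts of protein-coding genes. Coordinates are 1-based. A library's value is the strongest peak of its list with the summit inside the optimal peak, and it can serve several overlapping peaks. Class shares were compared by two-sided Fisher's exact test, motifs by exact McNemar or Fisher tests with Benjamini-Hochberg adjustment (threshold 0.05), and gene lists by counts. Log2 ratios have 0.5 added to each count. Python 3.11.15, scipy 1.17.1 and blastn 2.17.0 were used. The motif tests were checked on simulated data in which only the commonest motifs were raised 2-fold, with summits and flanks drawn independently. Of those 200 cases 99.5% were recovered against flanks. Recovery of rarer motifs was not simulated. In the data NF-Y at 2.68-fold and the glucocorticoid receptor at 3.44-fold did not pass (adjusted exact McNemar p = 0.084 and 0.106).

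Genes named are the nearest of the 20 strongest members, the 10 with the most members within 50 kb, and up to 4 per list. Motifs named were those past the threshold. The glucocorticoid receptor and NF-Y motifs, the distal members after the third, the printed tandem, long-run and motif windows, and the genes with only masked summits were chosen after their values were seen. Members and lists were chosen with earlier results of these data known. The symbols Cyr61, Ctgf, Mx2 and Tasor had no match in the annotation and were left out. Alternatives were other peak sets, each library alone, 1 peak per run of overlapping peaks, other definitions of masked, promoter, window, flank and gene distance, and, chosen after seeing the data, leaving out long runs or tandem tracts.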

Additional observations from a re-analysis of the deposited data

How the results depend on the processing

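No paired analysis was possible because the libraries form 1 group. Without one library, the masked share ranged from 9.20% to 9.66% and the median run from 27 to 29 bp. Under the same settings the log2 odds ratio of promoter share ranged from -0.48 to -0.28, that of signal from -0.34 to -0.31, and the share of coding genes near a member from 5.80% to 5.96%. Motifs above flanks numbered 3 to 4, motifs above unmasked summits 0 to 2 and motifs below them 1 to 3, ETS among the 3 without replicate 1.

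Among optimal peaks above the median signal the masked share was 8.38%, the median run 27 bp, the promoter difference -0.25 and the signal difference -0.19, neither of which passed, and 2.92% of coding genes were near a member. There 5 motifs stood above flanks, and 0 above and 0 below unmasked summits. With at least 50% of the bases within 50 bp of the summit masked, the share was 3.40%, 2.41% of genes were near a member, 0 motifs stood above flanks and 2 below unmasked summits. The conservative set gave 5.79% of genes, 4 motifs above flanks and 0 above unmasked summits. The strongest pooled peaks gave a promoter difference of -0.20, 5 motifs above flanks and 1 below.

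One peak per run gave 4.73% of genes near a member, a distance of 10 kb 2.01%, 100 kb 10.8% and the nearest start alone 3.18%. Windows of 50 bp on each side gave 1 motif above flanks and 1 above unmasked summits. A flank 2000 bp away gave 5 motifs, and flanks with a masked centre, at 177 members, 0. Distal summits alone gave 0 motifs above and 0 below unmasked summits. Without long runs 1 motif, RUNX, fell below flanks, and without tandem tracts 1 stood above. The AP-1 difference from unmasked summits, which never passed, turned positive for 1 peak per run (0.076), the conservative set (0.10), peaks above the median signal (0.14), the pooled peaks (0.061), without long runs (0.061), without tandem tracts (0.15) and without replicate 2 (0.28). Of 98 values for the main comparisons 62 counted as kept. Tests were judged by direction and side of the threshold, counts of motifs by a set ratio, and shares and run lengths by a set spread. A reversal could be called only where there was a test, and no main comparison with a test reversed. Keeping a call did not mean keeping its size: with at least 50% masked the signal difference was -1.45 and the conservative share -1.34, and without tandem tracts the promoter difference was -0.57. The conservative share passed under all its alternatives. With no read counts, the limit that depth sets is unknown.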
